A study of Mus musculus with 97 samples.

Results

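The cytochrome P450 and glucuronidation genes described here were the rows of a mouse gene table whose symbol starts with Cyp2, Cyp3a, Ugt1a or Ugt2b. They were selected on a total of at least 50 estimated counts over all 97 libraries. Of 108 rows with such a symbol, 61 reached that total, among 51368 rows in the table. The total chose the members, so the levels below describe them and only differences between groups were tested. The members nearest above the limit were Cyp2c37 with 51.006 and Ugt2b1 with 57 estimated counts, and those nearest below it were Cyp2d9 with 49.997 and Cyp2b9 with 48.248. Of the 47 rows below the total, 18 were at 0 in every library. The members comprised 3 Cyp2a, 1 Cyp2b, 13 Cyp2c, 6 Cyp2d, 4 Cyp2j, 6 Cyp3a, 8 Ugt1a and 6 Ugt2b genes, 7 other single members of the Cyp2 family, and 7 rows that the letters of the rule also take in, namely Cyp20a1, Cyp21a2-ps, Cyp26a1, Cyp26b1, Cyp26c1, Cyp27a1 and Cyp27b1. Of the 61 members, 57 were annotated as protein coding and the others as pseudogenes.

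The study asked how the nonsteroidal anti-inflammatory drug naproxen, the COX-2-selective drug celecoxib and the amino acid tryptophan change gene expression in the heart and jejunum of C57BL/6 mice. RNA was sequenced from 59 whole hearts and 38 jejuna, 1 library per animal and tissue, in 14 groups of 5 to 8 mice aged 11 weeks, with no engineered allele in the labels. Drugs were given in chow for 3 weeks and tryptophan by daily intraperitoneal injection in the last week, while the other mice of those experiments received saline buffer injections. Experiment 1 had no injections and compared hearts of 5 males on naproxen at 1610 ppm with 5 control males, and of 5 females on naproxen at 1323 ppm with 5 control females. Experiment 2 compared female hearts after naproxen plus tryptophan (n = 8), naproxen at 1323 ppm (n = 7) and control chow (n = 8). Experiment 3 compared female hearts after tryptophan at 50 mg/kg (n = 8) and control injections (n = 8). Experiment 4 compared female jejuna after naproxen plus tryptophan (n = 7), naproxen at 1323 ppm (n = 7), celecoxib at 550 ppm (n = 8), tryptophan at 50 mg/kg (n = 8) and control treatment (n = 8).

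Library totals were 26.3 to 76.4 in hearts and 10.1 to 28.5 in jejuna, in units of 1e6 estimated counts. Marker genes separated the hearts from the intestinal samples. The sum of 6 cardiomyocyte markers was between 21210 and 58920 counts per 1e6 (CPM) in hearts and between 11.9 and 66.8 CPM in jejuna. That of 8 absorptive enterocyte markers was between 10180 and 45680 CPM in jejuna and at most 3.76 CPM in hearts. These lists do not tell the jejunum from other segments of the intestine, and some jejuna were high in a marker of the ileum, as described below. Hearts were sequenced from poly(A)-selected RNA and jejuna from ribosome-depleted RNA, so tissue and library kit cannot be told apart. These are bulk tissues, in which fewer cells of a type and less RNA per cell cannot be told apart.

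Cytochrome P450 enzymes are haem proteins, most of them in the endoplasmic reticulum, that insert an oxygen atom into lipophilic drugs, steroids, bile acids and fatty acids. Those of the endoplasmic reticulum take electrons from the reductase encoded by Por. UDP-glucuronosyltransferases of the Ugt1a and Ugt2b families then attach glucuronic acid to such products, which makes them soluble enough to be exported into bile, urine or the gut lumen. The liver holds most of this capacity, and the enterocytes of the proximal small intestine hold much of the rest, as a first barrier to swallowed drugs. The nuclear receptors PXR (Nr1i2) and CAR (Nr1i3) induce Cyp3a, Cyp2b and Cyp2c genes, and the aryl hydrocarbon receptor (Ahr) induces Cyp1 genes and some Ugt1a genes. In humans, naproxen and celecoxib are themselves oxidised by CYP2C enzymes and conjugated as glucuronides.

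Promoter sequence upstream of the transcription start was available from RefSeq (GRCm38.p6) for 53 of the 61 members. The 250 bases before each start were searched on both strands, among 32851 windows of the same length, for 7 short motifs. AGGTCA is a site of nuclear receptors and AGTTCA a common variant of it. CAAAGT is a core of HNF4 sites, GTTAAT is part of HNF1 sites and TATAAA is the TATA box. GCGTG is the core of Ahr sites, and CCAAT was searched as well. The HNF4 core CAAAGT stood in 41.5% of the member genes and in 12.6% of all windows. TATAAA stood in 35.8% of the member genes against 12.4% of all windows, AGGTCA in 26.4% against 14.0%, and GTTAAT in 15.1% against 6.43%. GCGTG was in 15.1% of the member genes against 28.2% of all windows, AGTTCA in 13.2% against 11.8%, and CCAAT in 37.7% against 33.8%. Direct repeats of either nuclear receptor site with 4 or 3 bases between them were in 0 member genes, and in only 0.0244% and 0.0122% of all windows. At such shares a count of 0 among 53 genes says nothing particular about the members. These shares describe letters in a short window, and nothing was tested on them.

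5 windows are shown for genes whose values are followed below: Cyp3a11, the most abundant member in jejunum; Cyp3a44, a gene of the same cluster on chromosome 5 whose median was higher in the jejuna where that of Cyp3a11 was lower; Cyp2b10, the one with the widest relative range among the 10 members at a jejunal median of 100 CPM or more; Cyp2e1, which had the smallest p in 4 of the 7 jejunal comparisons; and Cyp2f2, high in a few hearts. They lie at chr5:145879855-145880104 on the minus strand (Cyp3a11), chr5:145805875-145806124 on the minus strand (Cyp3a44), chr7:25897408-25897657 on the plus strand (Cyp2b10), chr7:140763569-140763818 on the plus strand (Cyp2e1) and chr7:27119705-27119954 on the plus strand (Cyp2f2). Each reads 5′ to 3′ towards the start, and capitals mark every match listed above except CCAAT, a match on the other strand appearing as its reverse complement. In the Cyp3a11, Cyp3a44 and Cyp2e1 windows as printed, a number stands by error in place of the bases AAA. This affects each marked TATAAA and CAAAGT there, and the window itself holds AAA at those places. In the Cyp3a11 window a match of CAAAGT directly precedes the nuclear receptor site.
Cyp3a11: atttgcttgaatttctTAT-0.04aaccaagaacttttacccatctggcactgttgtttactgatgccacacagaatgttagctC-0.04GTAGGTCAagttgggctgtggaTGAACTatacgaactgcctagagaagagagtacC-0.04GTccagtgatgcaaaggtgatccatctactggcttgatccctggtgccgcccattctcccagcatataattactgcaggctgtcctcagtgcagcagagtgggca
Cyp3a44: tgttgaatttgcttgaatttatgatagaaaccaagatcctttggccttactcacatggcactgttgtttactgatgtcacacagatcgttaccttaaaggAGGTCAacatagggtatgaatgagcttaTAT-0.04ctgtccagggaaagatacgacC-0.04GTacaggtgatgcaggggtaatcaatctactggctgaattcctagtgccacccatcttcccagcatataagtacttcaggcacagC-0.04GT
Cyp2b10: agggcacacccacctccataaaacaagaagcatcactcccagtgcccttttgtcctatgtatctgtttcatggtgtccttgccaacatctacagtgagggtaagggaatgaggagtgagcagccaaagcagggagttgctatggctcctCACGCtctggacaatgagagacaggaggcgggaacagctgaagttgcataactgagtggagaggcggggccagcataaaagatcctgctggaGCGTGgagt
Cyp2e1: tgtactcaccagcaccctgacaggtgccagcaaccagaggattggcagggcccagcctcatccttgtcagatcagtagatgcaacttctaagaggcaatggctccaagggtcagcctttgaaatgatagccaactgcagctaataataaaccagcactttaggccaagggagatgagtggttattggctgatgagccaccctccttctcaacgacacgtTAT-0.04atccttgtttctcctcaggaaattc
Cyp2f2: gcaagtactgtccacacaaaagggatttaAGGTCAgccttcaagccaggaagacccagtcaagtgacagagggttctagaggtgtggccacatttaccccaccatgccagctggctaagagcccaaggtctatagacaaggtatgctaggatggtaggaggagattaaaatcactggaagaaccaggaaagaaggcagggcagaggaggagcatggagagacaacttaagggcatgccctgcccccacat
The Cyp3a11 window held 5 marked matches and the Cyp3a44 window held 4. The Cyp2b10 window held 2 matches of GCGTG and no TATAAA. The Cyp2e1 window held TATAAA alone among the capitals, and the Cyp2f2 window held a single AGGTCA.

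The jejunum carried the larger share of the members. In jejuna, 32 of the 61 members had a median of at least 1 CPM, 25 of at least 10 CPM and 10 of at least 100 CPM, and 7 had a median of 0. In hearts, 11 members had a median of at least 1 CPM, 3 of at least 10 CPM and 41 a median of 0. The median was higher in jejuna than in hearts for 50 members and higher in hearts for 4.

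Among the oxidising enzymes of the jejunum, Cyp3a11, the main mouse counterpart of human CYP3A4, had 194 CPM in the lowest library, a median of 914 CPM and 3213 CPM in the highest. Cyp3a13, an intestinal Cyp3a enzyme, ran from 183 to 1220 CPM with a median of 559 CPM, and Cyp3a25 had a median of 270.0 CPM. The arachidonic acid epoxygenase family gave Cyp2j6 at a median of 262 CPM, and the CAR target Cyp2b10 ran from 2.83 to 650 CPM, 229 times from lowest to highest. Cyp2d26 had a median of 181 CPM and Cyp2c65, an intestinal Cyp2c enzyme, one of 132 CPM. Among the conjugating enzymes, Ugt2b34 had a median of 614 CPM with a range of 237 to 1040 CPM. Ugt1a1, the bilirubin-conjugating enzyme, had a median of 202 CPM and Ugt1a7c one of 164 CPM. Per kilobase of exon, the jejunal medians ran from Cyp3a13 at 189 CPM over Cyp3a11 at 179, Ugt2b34 at 142, Cyp3a25 at 130.0, Cyp2d26 at 101, Cyp2b10 at 94.7 and Ugt1a1 at 90.7 to Cyp2j6 at 72.7 CPM per kilobase. The ranges of neighbours in this order overlap.

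In hearts the highest median belonged to Cyp2d22, a Cyp2d enzyme, at 24.1 CPM with a range of 16.1 to 33.6 CPM. Cyp2e1, which oxidises ethanol and other small molecules, had a median of 16.3 CPM and a range of 3.43 to 117 CPM. Cyp27a1, the mitochondrial sterol 27-hydroxylase, had a median of 15.5 CPM and a range of 8.43 to 27.1 CPM. Cyp20a1, an orphan P450, had a median of 9.97 CPM, Cyp2u1 one of 8.24 CPM, Cyp2j6 one of 7.80 CPM and Cyp26b1, a retinoic acid hydroxylase, one of 4.40 CPM. Per kilobase of exon the order changed, with Cyp2e1 at 7.56, Cyp27a1 at 7.11, Cyp2d22 at 6.17 and Cyp20a1 at 4.36 CPM per kilobase. The highest heart held 34.1 times the Cyp2e1 level of the lowest, against 2.09 times for Cyp2d22 and 1.54 times for Cyp20a1.

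**Figure D1:**
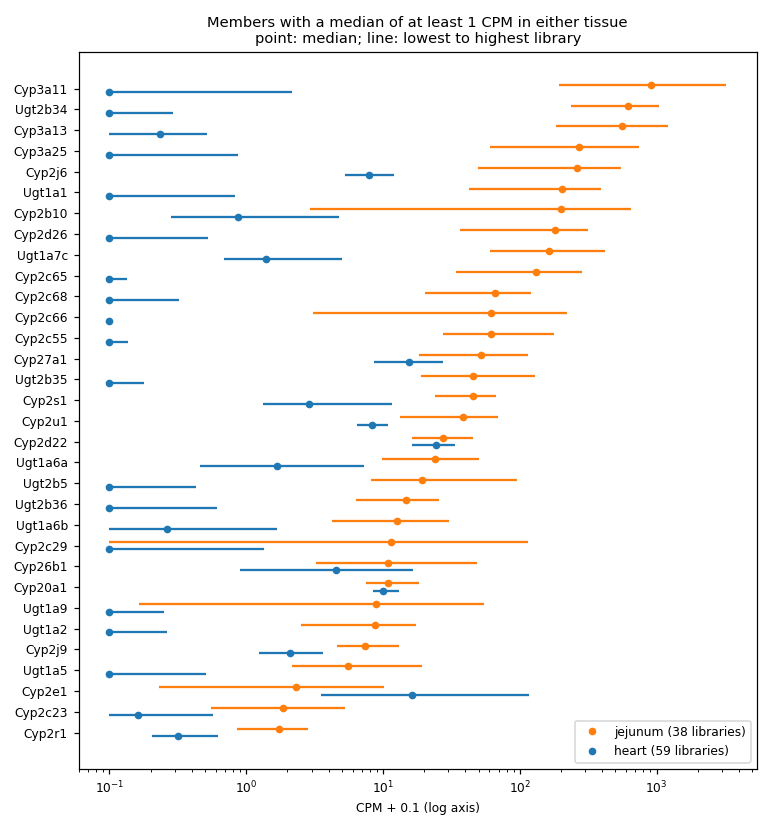
Levels of the members with a median of at least 1 CPM in either tissue, on a log axis of CPM + 0.1. Points are medians and lines run from the lowest to the highest library, for 38 jejuna (orange) and 59 hearts (blue); Cyp3a11 leads in jejunum with a median of 914 CPM, and in heart no median passes that of Cyp2d22 at 24.1 CPM.

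Some members cannot be separated cleanly by short reads. Of their distinct stretches of 31 bases, 99.9% were shared with another gene for Cyp3a41a, 84.2% for Ugt1a6b and 53.0% to 84.2% over all 8 Ugt1a members, which share their last exons. For Cyp3a44 the shared part was 48.4%, for Cyp3a25 45.9% and for Cyp2a5 54.6%. How the authors' estimates divided reads among such genes is therefore uncertain. Cyp2f2, Cyp27a1 and Cyp26b1 shared none, and Cyp2e1 shared 5.83%.

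Libraries stood apart within both tissues on genes that are not members. In 10 of 38 jejuna, Fabp6, the bile acid binding protein typical of the ileum, was at 1159 CPM or more, and in the other 28 it was at 125 CPM or less. These 10 were 2 of 7 naproxen plus tryptophan, 3 of 7 naproxen, 1 of 8 celecoxib, 3 of 8 tryptophan and 1 of 8 control jejuna. Of the 34 members at 1 CPM or more in either set, 29 had a lower median in the 10 jejuna, and for 11 of them it was at most 0.5 of the other median. Cyp3a11 had a median of 471 CPM in the 10 against 1193 CPM in the 28, Cyp2b10 one of 95.4 against 286 CPM, Ugt1a1 one of 102 against 244 CPM, and Cyp2c66 one of 25.6 against 83.2 CPM. Cyp3a44 ran the other way, with 2.53 CPM in the 10 against 0.635 CPM in the 28. In the same libraries Gata4, a transcription factor of the proximal small intestine, ranged from 4.96 to 37.0 CPM, against 35.5 to 94.2 CPM in the other jejuna. This division was made after seeing the data and is a description.

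Naproxen jejuna had lower medians than control jejuna for most of the abundant members, within wide overlap. The quasi-likelihood test of edgeR with Benjamini-Hochberg adjustment called 0 of 40 tested members at 0.05, against 0.0116% of all 17185 genes tested. DESeq2 and limma voom also called 0 members. At unadjusted p below 0.05 stood 6 of the 40 against 16% of all genes. The log2 fold change was negative for 32 members and positive for 8, with a median of -0.32 against 0.02 over all genes tested; without the 10 Fabp6-high libraries the members' median was -0.06. By family, it was negative for 7 of 9 Cyp2c, 4 of 5 Cyp3a, 6 of 8 Ugt1a and 5 of 5 Ugt2b members. The 8 absorptive enterocyte markers were negative too, with a median of -0.34 and 0 called. Medians of other marker sums also differed, with overlapping ranges. The sum of 4 Paneth cell markers had a median of 6196 CPM (2330 to 11460) in naproxen and 12840 CPM (4955 to 16430) in control jejuna. For 4 crypt stem cell markers it was 473 CPM (129 to 592) in naproxen and 677 CPM (422 to 775) in control jejuna. For 3 B cell markers it was 21.8 CPM (1.65 to 45.4) in naproxen and 2.18 CPM (0.990 to 72.7) in control jejuna, so the highest B cell sum was in a control. Naproxen replicate 7 stood apart, with 4 colon markers at 78.5 CPM, against at most 19.5 CPM in any other jejunum, and the lowest crypt stem cell sum, 129 CPM. The part of these markers in the members' values was not tested.

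Cyp3a11 had 196, 735 and 2147 CPM as lowest, median and highest value in naproxen jejuna, against 469, 1032 and 1927 CPM in control jejuna. Its log2 fold change was -0.36 with a 95% interval of -1.33 to 0.62. Cyp2b10 had 2.83, 133 and 260 CPM in naproxen jejuna, against 88.9, 286 and 395 CPM in control jejuna. The groups overlapped for both genes, and the Cyp2b10 difference was -0.86 with an interval of -1.98 to 0.26. Ugt2b34 had 268, 571 and 585 CPM in naproxen jejuna, against 361, 667 and 1006 CPM in control jejuna.

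The smallest p-value belonged to Cyp2e1, with 0.129, 0.715 and 2.74 CPM in naproxen jejuna, against 0.661, 2.34 and 4.73 CPM in control jejuna. Its log2 fold change was -1.34 with a standard error of 0.55 (edgeR adjusted p = 0.246), and it was negative in 4 of 4 dissection batches. All 5 adipocyte markers were also negative in naproxen against control jejuna, each at unadjusted p below 0.05 and 0 called, with a median of -2.40; their sum had a median of 14.5 CPM in naproxen and 45.3 CPM in control jejuna. Cyp27a1 had 27.4, 46.2 and 66.9 CPM in naproxen jejuna, against 48.0, 65.2 and 92.7 CPM in control jejuna, a log2 difference of -0.46 ± 0.19 (SE, edgeR adjusted p = 0.264).

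Cyp26b1, which clears retinoic acid, had 3.13, 25.4 and 48.4 CPM in naproxen jejuna, against 3.33, 10.9 and 14.8 CPM in control jejuna. Its values in the 7 naproxen jejuna were 3.13, 3.14, 5.71, 25.4, 31.1, 33.1 and 48.4 CPM, so 4 of them lay above every control and 2 below every control. The log2 difference was 1.10 with a standard error of 0.48 (edgeR adjusted p = 0.272), and 1.78 with a standard error of 0.44 (adjusted p = 0.0655) without the 10 Fabp6-high libraries. Cyp3a44 had 0.229, 0.688 and 12.6 CPM in naproxen jejuna, against 0.330, 0.703 and 4.66 CPM in control jejuna. Its log2 difference of 1.41 (SE 0.61, edgeR adjusted p = 0.269) became -0.27 without the Fabp6-high libraries, which include the naproxen jejuna at 12.6 and 9.02 CPM and the control jejunum at 4.66 CPM. Ugt2b36 and Cyp2c68 were the other members at unadjusted p below 0.05, with log2 differences of -0.46 and -0.49. Without a filter on low counts edgeR called 11 of 61 members, led by Cyp2c29 at -1.01 and Cyp26b1 at 1.08, and 3.65% of 32343 genes. Those genes include many at lower counts than the minimum of 50 set for the members, so the shares are not directly comparable.

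**Figure D2:**
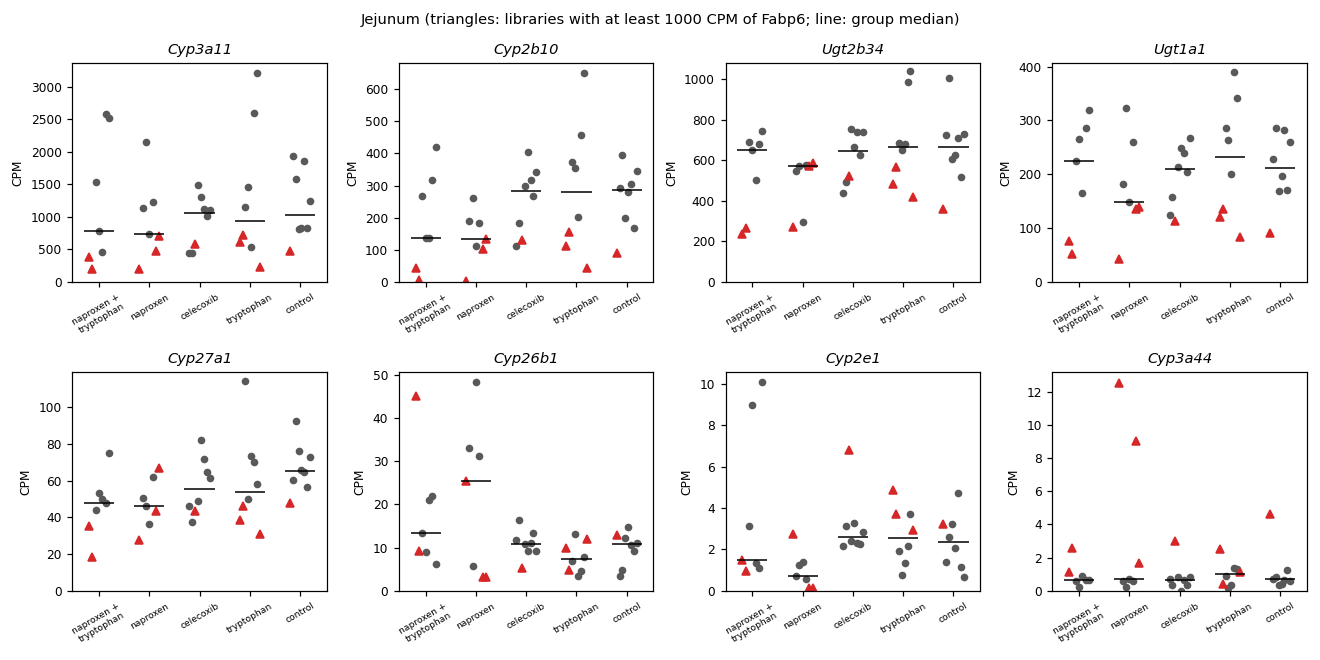
CPM of 8 members in each jejunum of the 5 groups, with a line at the group median and triangles for the libraries at 1000 CPM of Fabp6 or more. The triangles lie low for Cyp3a11, Cyp2b10 and Ugt1a1 and hold the highest Cyp3a44 values, and 4 of 7 naproxen jejuna lie above all controls for Cyp26b1.

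**Figure D3:**
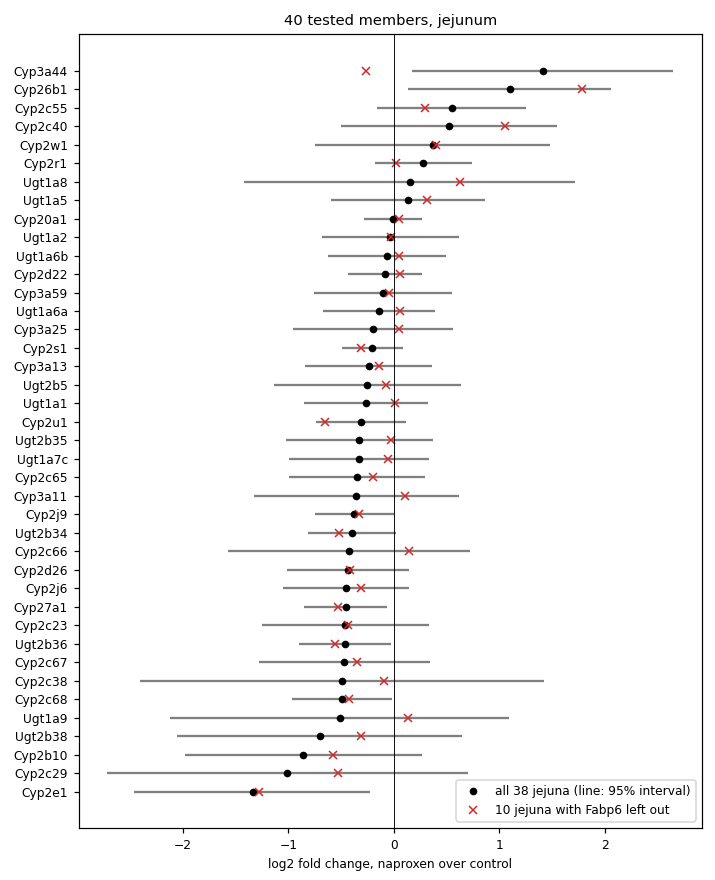
Log2 fold change of naproxen against control jejuna for the 40 tested members, with 95% intervals from edgeR. Most points lie left of 0, with 32 negative and 8 positive, and 0 passed the adjusted threshold.

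In celecoxib against control jejuna, edgeR called 0 of 40 members and 0% of all genes, and 0 members were at unadjusted p below 0.05, against 4.37% of genes; DESeq2 and limma voom called 0. The log2 fold change was negative for 31 members, with a median of -0.15 against -0.00341 over all genes; without the Fabp6-high libraries the members' median was -0.17. Cyp3a11 had 437, 1053 and 1483 CPM in celecoxib jejuna, against 469, 1032 and 1927 CPM in control jejuna, and Cyp2b10 had 112, 284 and 403 CPM against 88.9, 286 and 395 CPM. The groups overlapped almost fully for both. The largest differences by p were those of Ugt2b38 at -1.09 (95% interval -2.44 to 0.26) and Cyp2w1 at 0.78 (-0.28 to 1.85), both with medians under 0.5 CPM in both groups.

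The drugs were also set against each other, naproxen at 1323 ppm against celecoxib at 550 ppm, doses that differ, for the same 3 weeks. edgeR called 0 of 40 members and 0% of all genes; 3 members were at unadjusted p below 0.05, against 18.7% of genes, and limma voom called 0. Without the Fabp6-high libraries edgeR called 842 of 17316 genes (4.86%) and 0 of 40 members, with 4 members at unadjusted p below 0.05 against 4608 genes, and omissions of a single library gave 0 to 498 called genes. Cyp2e1 had 0.129, 0.715 and 2.74 CPM in naproxen jejuna, against 2.15, 2.62 and 6.82 CPM in celecoxib jejuna. The log2 difference was -1.76 ± 0.54 (SE, edgeR adjusted p = 0.124), with 6 of 7 naproxen jejuna below every celecoxib jejunum. DESeq2 called this gene alone among the members, at -1.82 (adjusted p = 0.0385), 1 of the 36 it tested against 1.77% of 16667 genes. Cyp3a44 differed by 1.83 (SE 0.62, adjusted p = 0.145) and Cyp2u1 by -0.43 (SE 0.21, adjusted p = 0.266). Without the Fabp6-high libraries, Cyp26b1 differed by 1.45 (adjusted p = 0.0503), Cyp2u1 by -0.73 (0.0608), Cyp2e1 by -1.61 (0.0858) and Cyp3a44 by 0.10 (0.925). The 5 adipocyte markers were all negative in this comparison as well, with a median of -2.79 and a smallest adjusted p of 0.0944.

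In tryptophan against control jejuna, 29 members were positive and 11 negative, against 8471 positive and 8714 negative among all genes tested. The members' median log2 fold change was 0.08, against -0.00266 over all genes, and 0.30 without the Fabp6-high libraries. This balance of signs was opposite to that of naproxen jejuna, but both comparisons share their controls and are not independent. edgeR called 0 of 40 members and 0% of genes, and 0 members were at unadjusted p below 0.05, against 2.65% of genes; DESeq2 and limma voom called 0. Cyp3a11 had 230.1, 940 and 3213 CPM in tryptophan jejuna, against 469, 1032 and 1927 CPM in control jejuna. The tryptophan group thus held both lower and higher values than any control. The members with the smallest p were Ugt1a5 at 0.40 (95% interval -0.31 to 1.11) and Ugt2b5 at 0.48 (-0.41 to 1.37).

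For naproxen plus tryptophan against control jejuna, edgeR called 0 of 40 members and 0% of genes, and 4 members were at unadjusted p below 0.05, against 5.98% of genes; DESeq2 and limma voom called 0. The sign was negative for 30 members, with a median of -0.20 against 0.0164 over all genes, or 0.01 without the Fabp6-high libraries. Cyp27a1 had 18.3, 47.7 and 75.3 CPM in the combined group, against 48.0, 65.2 and 92.7 CPM in control jejuna, a difference of -0.54 ± 0.19 (SE, edgeR adjusted p = 0.728). Cyp2c67, Cyp2c68 and Ugt2b36 differed by -0.90, -0.49 and -0.45. This comparison and the naproxen one share their controls.

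Against naproxen alone, the combined treatment gave 0 of 40 members called by edgeR and 0% of genes, with 2 members at unadjusted p below 0.05, against 3.66% of genes. Cyp2e1 had 0.950, 1.498 and 10.1 CPM after naproxen plus tryptophan, against 0.129, 0.715 and 2.74 CPM after naproxen. The groups overlapped, and the difference was 2.21 ± 0.58 on the log2 scale (SE, edgeR adjusted p = 0.996). DESeq2 called it at 2.33 (adjusted p = 0.0178), 1 of 61 members against 0.105% of genes, and limma voom called 0 members. The adipocyte marker sum had a median of 38.6 CPM after naproxen plus tryptophan and 14.5 CPM after naproxen, and its part in this difference was not tested. Cyp3a44 differed by -1.74 (SE 0.65, adjusted p = 0.996) and by 0.03 without the Fabp6-high libraries. The interaction of naproxen and tryptophan gave 0 members called by edgeR, DESeq2 and limma voom, and 0% of genes by edgeR; 1 of 40 members was at unadjusted p below 0.05, against 3.4% of genes. That member was Cyp2e1, with an interaction of 2.01 ± 0.76 (SE, edgeR adjusted p = 1). The members' median interaction was 0.01, or -0.22 without the Fabp6-high libraries.

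In 11 of 59 hearts Scgb1a1, the club cell secretory protein of the lung airway, was at 1.14 CPM or more, and in the other 48 it was at 0.135 CPM or less. These hearts were 3 naproxen plus tryptophan, 3 naproxen and 1 control of experiment 2, 1 naproxen male and 2 control males of experiment 1, and 1 control of experiment 3. Cyp2f2 and Cyp2a5, P450 enzymes abundant in mouse airway epithelium and, for Cyp2a5, liver, were high in the same hearts. Cyp2f2 had 0.621, 4.15 and 56.1 CPM in the 11 as lowest, median and highest value, against 0.0344, 0.268 and 1.65 CPM in the 48. Cyp2a5 had a median of 3.57 CPM in the 11 and of 0 in the 48. The sum of 6 lung epithelium markers reached 570.1 CPM in 1 naproxen heart of experiment 2. Of the 14 members with a median of 1 CPM or more in either set, 10 had a higher median in the 11 hearts and 4 a lower one. In 4 of the 10 it was at least 2 times the other median. Besides Cyp2f2 and Cyp2a5 these were Cyp2b10, at 1.66 against 0.651 CPM, and Cyp2e1, at 28.0 against 12.8 CPM. Cyp2d22, by contrast, had a median of 23.9 CPM in the 11 and 24.3 CPM in the 48.

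Members that most hearts lacked also came together in single libraries. Of 38 members with a heart median of 0 that were above 0 somewhere, 20 had their highest value in 1 tryptophan heart of experiment 3 and 6 in 1 control female heart of experiment 1. Those hearts had the highest and second highest level of albumin, a hepatocyte product, at 53.3 and 17.6 CPM, against a median of 0.110 CPM over all hearts. The part of albumin-expressing cells in these values was not tested.

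**Figure D4:**
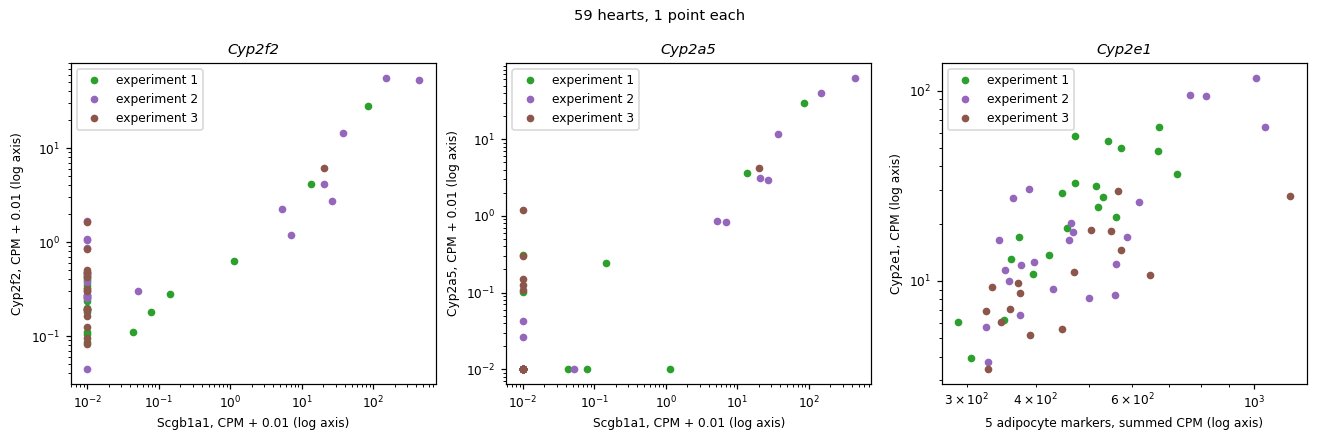
Cyp2f2 and Cyp2a5 against Scgb1a1 (CPM + 0.01) and Cyp2e1 (CPM) against the summed CPM of 5 adipocyte markers, on log axes, 1 point per heart coloured by experiment. Cyp2f2 and Cyp2a5 reach their highest values in the 11 of 59 hearts at 1 CPM of Scgb1a1 or more, and Cyp2e1 is higher in hearts with more adipocyte marker RNA.

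Naproxen hearts of experiment 1 were compared with controls within each sex. In males, edgeR called 0 of 14 tested members and 0% of 15152 genes; 2 members were at unadjusted p below 0.05, against 7.68% of genes, and limma voom called 0. DESeq2 called 0 as well, but gave adjusted p-values for only 5099 genes and 2 of the members. The sign was negative for 13 of the 14 members, with a median of -0.20 against -0.0125 over all genes. Cyp2d22 had 16.1, 22.4, 17.8, 19.2 and 17.8 CPM in naproxen males, against 21.9, 23.3, 21.5, 22.3 and 25.2 CPM in control males. 4 of 5 naproxen values lay below every control value, and the difference was -0.29 ± 0.11 (SE, edgeR adjusted p = 0.51). Cyp2f2 had 0.440, 0.621, 0.380, 0.172 and 0.101 CPM in naproxen males, against 0.340, 0.187, 0.1003, 4.15 and 28.2 CPM in control males. The control values of 4.15 and 28.2 CPM came from the hearts with Scgb1a1, and the difference of -4.25 ± 1.14 (SE, adjusted p = 0.409) became 0.35 without the Scgb1a1 libraries.

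In females, edgeR called 0 of 14 members against 0.0132% of genes, and 0 members were at unadjusted p below 0.05, against 7.14% of genes; DESeq2 and limma voom called 0. Signs were balanced, with 8 positive and 6 negative members. Cyp2d22 averaged 20.7 ± 3.19 CPM in naproxen females and 19.5 ± 2.00 CPM in control females (SD, n = 5 each), within the spread of the mice. Cyp20a1 differed by -0.17 (95% interval -0.35 to 0.00308). The naproxen effect in males minus that in females gave 0 called members by edgeR, DESeq2 and limma voom and 0% of genes by edgeR, with 2 members at unadjusted p below 0.05 against 5.05% of genes. These were Cyp2f2 at -4.61, or -0.04 without the Scgb1a1 libraries, and Cyp2d22 at -0.38 (SE 0.15, edgeR adjusted p = 0.759). The naproxen chow held 1610 ppm for males and 1323 ppm for females, and the effect of sex cannot be told apart from that of dose.

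In control males against control females, Cyp27a1 had the smallest p of the members by edgeR and did not pass. It had 15.2, 19.9, 16.3, 20.4 and 27.1 CPM in males, against 15.3, 11.7, 10.1, 8.43 and 12.4 CPM in females. The lowest male value fell just under the highest female value, and the difference was 0.77 ± 0.18 (SE, edgeR adjusted p = 0.147). DESeq2 called Cyp27a1 at 0.78 (adjusted p = 0.00991) and also Cyp2f2 at 4.91 (adjusted p = 0.00156), 2 of 24 members against 0.387% of genes; limma voom called 0. Without the Scgb1a1 libraries, among them 2 of the 5 control males, Cyp27a1 differed by 0.59 (edgeR adjusted p = 0.899) and Cyp2f2 by -0.0342. edgeR called 0 of 14 members against 0.152% of genes, and 4 members were at unadjusted p below 0.05 against 8.22% of genes, the other two being Cyp20a1 at -0.18 and Cyp2d22 at 0.23.

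In experiment 2, Cyp2d22 was the member with the smallest p in both comparisons with control hearts, which share those controls. It had 20.8, 23.8 and 26.6 CPM as lowest, median and highest value after naproxen plus tryptophan, 21.2, 24.5 and 28.7 CPM after naproxen, and 23.9, 29.3 and 30.4 CPM in controls. The groups overlapped. Naproxen plus tryptophan differed from control by -0.24 ± 0.07 (SE, edgeR adjusted p = 0.113), which DESeq2 called at -0.23 (adjusted p = 0.0389), 1 of the 13 members it tested against 3.49% of 13418 genes, and limma voom did not. Naproxen differed from control by -0.18 ± 0.07 (SE, edgeR adjusted p = 1). Without the Scgb1a1 libraries these became -0.29 (adjusted p = 0.182) and -0.28 (adjusted p = 0.359).

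Over all 17 tested members, edgeR called 0 for naproxen plus tryptophan against control, where 0.255% of 16085 genes were called, and 1 member was at unadjusted p below 0.05 against 17.2% of genes. For naproxen plus tryptophan against naproxen it called 0 members and 0.0933% of genes, with 0 members at unadjusted p below 0.05 against 9.8% of genes. For naproxen against control it called 0 members and 0% of genes, with 2 members, Cyp2d22 and Cyp2j9, at unadjusted p below 0.05 against 3.63% of genes. DESeq2 called 0 members in the last 2 comparisons, and limma voom called 0 in all 3. The members' median log2 fold change for naproxen plus tryptophan against control was -0.06, or -0.30 without the Scgb1a1 libraries, and for naproxen against control -0.04, or -0.18 without them. Without those libraries edgeR called 0 of 16 members in each comparison. At unadjusted p below 0.05 then stood 6 members and 1901 of 16166 genes for naproxen plus tryptophan against control, with 0.0309% of genes called, and 4 members and 2092 genes against naproxen, with 0.0495% of genes called. Signs were mixed in each, with 5 positive of 17 for naproxen plus tryptophan against control, 7 of 17 against naproxen, and 8 of 17 for naproxen against control. Cyp2j9, an epoxygenase, averaged 1.59 ± 0.196 CPM after naproxen (SD, n = 7) and 1.86 ± 0.235 CPM in controls (SD, n = 8).

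Tryptophan hearts of experiment 3 gave 0 of 15 members called by edgeR, DESeq2 and limma voom, and 0% of 15805 genes called by edgeR. 1 member was at unadjusted p below 0.05, against 2.9% of genes. It was Ugt1a7c, with 0.920, 1.19 and 1.9 CPM in tryptophan hearts, against 0.583, 0.986 and 1.36 CPM in controls. The groups overlapped, and the difference was 0.37 ± 0.15 (SE, edgeR adjusted p = 1). Cyp2d22 differed by -0.05 with a 95% interval of -0.17 to 0.07.

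**Figure D5:**
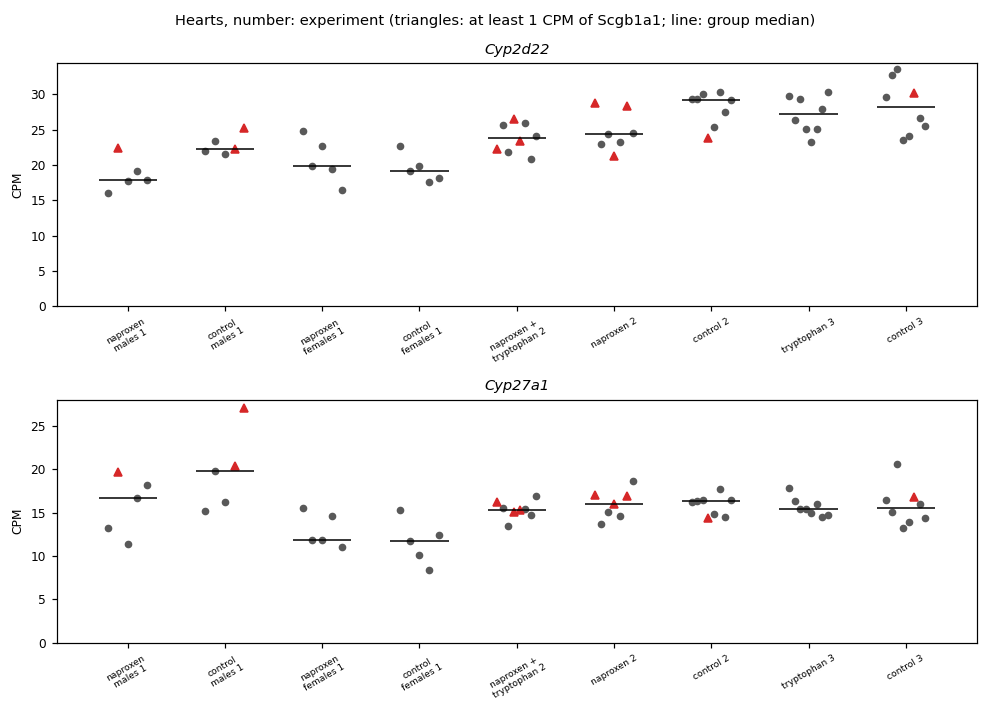
CPM of Cyp2d22 and Cyp27a1 in the 9 heart groups of experiments 1 to 3, 1 point per heart with a line at the group median and triangles for hearts at 1 CPM of Scgb1a1 or more. Cyp2d22 medians were 17.8 CPM in naproxen males and 22.3 CPM in control males, and Cyp27a1 medians were 19.9 CPM in control males and 11.7 CPM in control females of experiment 1.

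Cyp2e1, also expressed by adipocytes, spread widely within heart groups. In experiment 2 it had 3.75 to 117 CPM after naproxen plus tryptophan and 5.69 to 93.5 CPM in controls. The heart at 117 CPM also had Scgb1a1 at 151 CPM and a lung epithelium marker sum of 185 CPM. That at 93.5 CPM had Scgb1a1 at 0. The part of airway tissue in the Cyp2e1 values was not tested. The log2(CPM + 0.5) of Cyp2e1 was compared with that of the sum of 5 adipocyte markers across the libraries of each experiment, 4 relations in all. Pearson's r was 0.861 over 20 hearts, 0.787 over 23, 0.766 over 16 and 0.592 over 38 jejuna in experiments 1 to 4. Spearman's rho was 0.83, 0.641, 0.744 and 0.671 in that order. The permutation p-values of r were 1e-05, 3e-05, 3e-04 and 8e-05, of which 1e-05 is the smallest that the permutations can give. After Benjamini-Hochberg adjustment they were 4e-05, 6e-05, 3e-04 and 1e-04. The libraries of all groups of an experiment entered together, and in jejuna the medians of Cyp2e1 and of the marker sum were both lower after naproxen than in controls. The p-values therefore do not measure a relation within groups. Without the 2 libraries farthest from the median marker sum, r was 0.784, 0.682, 0.795 and 0.84. Within the 4 dissection batches of the jejuna r was 0.235, 0.795, 0.8 and 0.893 over 10, 10, 10 and 8 libraries. It was lowest in the first batch, where 10 libraries cannot show whether the relation was weaker or absent. The batches of experiment 3 hold too few hearts for a value. The marker genes and Cyp2e1 were measured in the same libraries, and the part of fat tissue in the treatment differences of Cyp2e1 was not tested.

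The rest of the pathway was described by 62 genes that are not members: nuclear receptors, electron donors, other P450s, genes of glucuronic acid supply, other conjugating enzymes and transporters. Of these, 44, 45, 44 and 58 were tested in experiments 1 to 4. edgeR called 1 in the 15 comparisons, Ahr in naproxen plus tryptophan against control hearts, where 1 of 45 passed and it was lower. Ahr, the receptor for dioxins and for tryptophan-derived ligands, had 4.41, 5.08 and 6.48 CPM after naproxen plus tryptophan, 5.19, 7.70 and 9.88 CPM after naproxen and 5.55, 8.29 and 10.2 CPM in controls. The combined group overlapped both others, and the difference from control was -0.62 ± 0.13 (SE, edgeR adjusted p = 0.0454). DESeq2 also called it, and limma voom did not. Without the Scgb1a1 libraries the adjusted p was 0.225, and it stayed below 0.05 in 4 of 16 omissions of a single heart, with log2 differences of -0.68 to -0.56. In the same comparison the Ahr targets Ahrr and Cyp1b1 differed by 0.42 and -0.58 (adjusted p = 0.103 and 0.143).

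In jejuna 0 of 58 pathway genes were called by edgeR in any of the 7 comparisons, and DESeq2 and limma voom called 0 as well. At unadjusted p below 0.05 stood between 1 and 9 of the 58, against 2.65% to 18.7% of all genes. The 9 were in naproxen plus tryptophan against control, where the share of all genes was 5.98%. The nuclear receptor genes overlapped between groups: Nr1i2 had 41.3, 72.5 and 119.8 CPM in naproxen jejuna, against 45.1, 74.8 and 114.4 CPM in control jejuna. Nr1i3 had 4.60, 45.1 and 63.0 CPM in naproxen jejuna, against 21.4, 59.9 and 71.1 CPM in control jejuna. The largest difference was that of Cyp1a1, the main Ahr-induced P450, which had 1.60, 2.67 and 7.88 CPM in celecoxib jejuna, against 4.21, 11.5 and 28.3 CPM in control jejuna. The groups overlapped, and the difference was -2.29 ± 0.63 (SE, edgeR adjusted p = 0.957). In naproxen against control jejuna, the sulfotransferases Sult1d1 and Sult1b1 had the smallest p-values, at -0.52 and -0.55 (adjusted p = 0.21 and 0.217). In experiment 1 hearts, Ppara, the receptor that induces fatty acid oxidising P450s, differed by 0.58 between naproxen and control males and by 0.46 between naproxen and control females (edgeR adjusted p = 0.348 and 0.409).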

How the data were processed

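The authors deposited 1 table of estimated counts per gene, from Salmon 1.9.0 on GRCm38 with R 4.2.2 per the submitters' processing notes; the sources used here do not state the step from transcripts to genes. Libraries came from poly(A)-selected RNA (heart) or ribosome-depleted RNA (jejunum, chosen for its lower RNA integrity), both with stranded kits, per the labels' protocols. No 2 libraries held identical values. After rounding to whole numbers, they were fitted in R 4.3.3 with edgeR 4.0.16, 1 fit per experiment over all its groups, with TMM scaling, a minimum count of 10 in filterByExpr, robust quasi-likelihood tests, and the dissection batch given in the labels as a term in experiments 3 and 4. P-values were Benjamini-Hochberg adjusted over all genes tested, with calls at 0.05. CPM values use TMM-scaled library sizes, set within each experiment, so levels between experiments and tissues rest on separate scalings.

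Of the members, 14, 17, 15 and 40 passed the count filter in experiments 1 to 4. A member that passed through the group where it is high could enter the test only by being high there. Alternatives were DESeq2 1.42.0, limma 3.58.1 (voom), DESeq2-type size factors, no filter, only the compared groups, no batch term, a replicate block, and each library left out in turn. Leaving out hearts with Scgb1a1 at 1 CPM or jejuna with Fabp6 at 1000 CPM was added after seeing the data. Named were the called members, otherwise the 5 with the smallest p per comparison, the 8 with the highest mean CPM per tissue, and called pathway genes; other genes named were chosen after their values were seen. The members, pathway list and marker lists were chosen with earlier results of these data known. The fit was tested on simulated data. Promoter windows are from RefSeq (GRCm38.p6) and shared 31-base stretches from GENCODE transcripts of the same build. Permutation tests drew 1e5 samples. Groups of 5 to 8 mice and totals of 10.1 to 76.4 (in units of 1e6 counts) limit the precision.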

Additional observations from a re-analysis of the deposited data

Results flagged for a closer look

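Levels of the 8 members with the highest heart mean and of those with the highest jejunum mean were looked at in each group of 4 to 10 mice for a library far from the rest by Dixon's criterion. Of 112 such groups, 12 held one, all in hearts. The criterion's nominal rate of about 1 in 20 cannot be set against this count. Members were chosen by their mean, which single high libraries raise, and some libraries held more than 1 flagged value. Cyp2f2 had a heart mean of 3.25 CPM and a median of 0.314 CPM. Cyp2f2 accounted for 6 of them: 56.1 CPM in 1 naproxen plus tryptophan heart of experiment 2 (next 4.14), 53.6 CPM in 1 naproxen heart of experiment 2 (next 2.75), 1.64 CPM in 1 tryptophan heart of experiment 3 (next 0.469), and in control hearts 28.2 CPM in experiment 1 males (next 4.15), 14.6 CPM in experiment 2 (next 1.65) and 6.09 CPM in experiment 3 (next 0.824). Cyp2e1 reached 117 CPM in a naproxen plus tryptophan heart (next 16.9) and 93.5 CPM in a control heart of experiment 2 (next 30.4). Cyp26b1 reached 14.7 CPM in a naproxen plus tryptophan heart (next 6.85) and 12.3 CPM in a tryptophan heart (next 5.93). Cyp2u1 was at 10.4 CPM in a control heart of experiment 2 (next 8.89) and Cyp20a1 at 10.8 CPM in a control male heart of experiment 1 (next 10.1). The cause of these values was not tested.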

How the results depend on the processing

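With the count filter, edgeR called 0 members in all 15 comparisons and in every omission of 1 library (0 to 0). DESeq2 called 2 members in control males against control females, where it called 0.387% of genes, 1 in naproxen plus tryptophan against control hearts (3.49%), 1 in naproxen plus tryptophan against naproxen jejuna (0.105%) and 1 in naproxen against celecoxib jejuna (1.77%). With no filter, edgeR called in jejuna 2 members for celecoxib, 11 for naproxen, 1 for tryptophan and 6 for naproxen plus tryptophan against control, 4 for naproxen plus tryptophan against naproxen, 7 for naproxen against celecoxib and 3 for the interaction, and in the same order 1, 13, 2, 7, 1, 6 and 1 pathway genes, with 1 more for tryptophan hearts. The shares of all genes called without the filter were 0.986%, 3.65%, 0.782%, 1.47%, 1.03%, 5.52% and 0.986% in that order, and 0.623% for tryptophan hearts. In jejuna these shares were over 32343 genes, many at lower counts than the members, and the member counts were out of 61, so they are not directly comparable. DESeq2 called 1 pathway gene for naproxen in females and 1 in males of experiment 1, 5 for naproxen plus tryptophan against control hearts and 2 against naproxen hearts. The shares of all genes it called were 0.351%, 0.706% of only 5099 genes, 3.49% and 0.523% in that order. Ahr, the 1 pathway gene called in naproxen plus tryptophan against control hearts, was lost (0 called) without the Scgb1a1 libraries, under limma voom and without the filter. Leaving out 1 library gave 0 to 1 pathway genes there, in naproxen against control males and in naproxen plus tryptophan against naproxen hearts. Over all genes these omissions gave 7 to 83, 0 to 3 and 0 to 42 calls in that order. Without the Fabp6 libraries 2 pathway genes were called for naproxen against celecoxib, where 4.86% of genes were called. The cause was not tested.

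Cyp2f2 changed sign without the Scgb1a1 libraries, to 0.345 for naproxen in males, -0.0342 for control males against control females and -1.69 for naproxen plus tryptophan against control hearts, the last also under limma voom (-0.274) and without the naproxen plus tryptophan replicate 4 (-1.43, in a range of -1.43 to 3.46 over single omissions). Cyp2a5 for naproxen in experiment 2 became -1.19 without naproxen replicate 1 (-1.19 to 2.9 over single omissions). Cyp3a44 changed sign without the Fabp6 libraries, to -0.268 for naproxen against control and 0.0252 for naproxen plus tryptophan against naproxen. Of the other values, 488 kept direction and side of the threshold across settings, 22 came to pass it and 4 no longer passed it. Across omissions of 1 library 1159 kept both and 12 no longer passed it. Replicate numbers name animals of separate groups; same-numbered libraries correlated at -0.468 to 0.386 in their deviations. Under the replicate block 0 members were called, and Ahr was at -0.61 (adjusted p = 0.108), with 0 pathway genes called in that comparison. No paired analysis was possible for control males against control females because they share no replicate number. Depth limits members below about 1 CPM.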
